A study of Homo sapiens with 15 samples.

Results

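The genes described here are the 35 that encode integrin alpha chains (17 genes), integrin beta chains (8) and laminin chains (10: 5 alpha, 3 beta and 2 gamma), picked by gene symbol out of the 35012 symbols of the deposited count matrix. All 35 symbols were found, and 28 of them passed the filter on low counts and were tested. They were measured by RNA sequencing in HepG2, a human liver cancer cell line, in 15 libraries of 4 groups. The groups carried lentiviral short hairpin RNAs against BRG1 (4 libraries), against BRM (3 libraries), against both (4 libraries, called double here), or the hairpin labelled NS as the control (4 libraries). BRG1, encoded by SMARCA4, and BRM, encoded by SMARCA2, are the alternative ATPase motors of the SWI/SNF chromatin remodelling complexes, and the study asked where they act together and where against each other. All groups, NS included, shared polybrene-assisted transduction, puromycin selection and harvest 5 days after transduction. The labels do not say how many hairpin sequences were used for each gene, nor whether the libraries of a group came from separate cultures, so p-values measure the spread between these libraries, which may be technical. The hairpins lower the BRG1 or BRM transcript in a population of 1 cell line and remove no gene.

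Integrins are cell surface receptors made of 1 alpha and 1 beta chain. The pair decides what is bound: collagens, fibronectin and other proteins with the RGD motif, laminins, or counter-receptors on other cells. ITGB1 encodes the beta chain with most alpha partners, and the matrix signal is passed to the actin cytoskeleton through talin, kindlin and focal adhesion proteins. Laminins are cross-shaped trimers of an alpha, a beta and a gamma chain that form the sheet of basement membranes. Normal hepatocytes face a sinusoid without a continuous basement membrane and carry few laminin-binding integrins, whereas bile duct epithelium and many liver tumours carry more.

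The libraries held 11500149 to 27187991 counts each, and in each group the libraries came in 2 sets: numbers 1 and 2 had 4.97 to 8.33% of counts from mitochondrial genes, numbers 3 and 4 had 1.33 to 3.55%. BRM has 1 library in the second set. Members for which these sets differed are given with both values. The targeted genes followed the labels. SMARCA4 averaged 27.8 ± 2.32 CPM in the BRG1 libraries, 346 ± 86.7 in BRM, 46.2 ± 6.09 in double and 307 ± 6.99 in NS, where CPM is the count per 1e+06 counts of the TMM-scaled library and the error is the SD. SMARCA2 averaged 25.8 ± 3.64, 4.38 ± 2.22, 2.57 ± 0.299 and 39.2 ± 4.05 CPM in the same order of groups. The mean of SMARCA2 was thus also lower in BRG1 than in NS. For this the authors' deposited values give a log2 fold change of -0.64 (adjusted p = 0.0219), while edgeR called only SMARCA4 of the 2 targets lower in BRG1. All 8 hepatocyte markers examined were detected in every library, and their summed level ran over 5557 to 18521 CPM in BRG1, 47795 to 51901 in BRM, 11023 to 25232 in double and 23872 to 36944 in NS. The summed level of 4 cholangiocyte markers, most of it KRT19, ran over 2879 to 5016 CPM in BRG1, 515 to 1028 in BRM, 1295 to 2776 in double and 1023 to 1505 in NS. The summed level of 6 fibroblast and stellate markers, nearly all of it COL1A1 and PDGFRB, ran over 56.8 to 245 CPM in BRG1, 13.6 to 26.0 in BRM, 20.8 to 39.8 in double and 31.6 to 72.0 in NS. These sums moved with the groups, and their part in the results was not tested. Taken singly, 6 of the 8 hepatocyte markers were called lower against NS in BRG1, 1 in BRM and 3 in double (edgeR adjusted p under 0.05). None was called higher. Of the 4 cholangiocyte markers, 1 was called higher in BRG1, 1 lower in BRM and 1 lower in double. Only 2 fibroblast and stellate markers were tested, and neither was called. Of all tested genes, 22.5% were called in BRG1, 13.9% in BRM and 21.6% in double. The stromal markers COL1A2, COL3A1, DCN and LUM had at most 6 counts in any library. Of 4 endothelial markers, KDR had at most 1 count, VWF at most 80, CDH5 at most 34 and PECAM1 at most 125, and their summed level was 5.13 to 5.95 CPM in BRG1, 4.11 to 9.96 in BRM, 3.55 to 4.29 in double and 4.85 to 6.36 in NS.

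To set different chains side by side, CPM was divided by the summed exon length of the gene in kilobases. On this scale ITGB1 was the most abundant of the 35 in every group, with 203 CPM per kilobase in BRG1, 64.3 in BRM, 196 in double and 71.5 in NS. In NS it was followed by LAMC1 at 43.1, LAMB1 at 35.9, LAMB2 at 30.7, ITGB5 at 23.9 and LAMA5 at 22.7 CPM per kilobase, and then ITGAV at 21.3, ITGA6 at 21.3 and ITGA2 at 11.9. In BRG1 and in double the second place went to ITGA2, at 77.6 and 44.2 CPM per kilobase, against 11.9 in NS. In BRM the second was LAMC1, at 40.6 CPM per kilobase. The number of members at or above 10 CPM per kilobase was 10 in BRG1, 8 in BRM, 9 in double and 9 in NS. Those under 1 CPM per kilobase numbered 19, 20, 20 and 21 in the same order. The rest lay between, such as ITGA3 at 9.64 CPM per kilobase in BRG1. The abundant transcripts in NS were thus those of ITGB1 and ITGB5, of ITGA2, ITGA6 and ITGAV, and of the laminin chains LAMA5, LAMB1, LAMB2 and LAMC1.

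The 7 members under the filter were ITGA2B, the alpha chain of the platelet fibrinogen receptor, ITGA4 and ITGB7, chains of lymphocyte homing receptors, ITGA8 and ITGA9, partners of ITGB1, ITGAM, a myeloid partner of ITGB2, and ITGB6, an epithelial partner of ITGAV. None had more than 13 counts or 0.806 CPM in any library. ITGA4 had 0 counts in all 15, which allows at most 3 counts, or 0.105 to 0.277 CPM depending on the library, for counting error only. No differences were tested for these 7.

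Against NS, the BRG1 hairpin was followed by higher levels of integrin chains of all 3 matrix-binding kinds, the BRM hairpin by lower ITGA5, ITGA10, LAMA3 and LAMB1 with higher ITGB2 and ITGB3, and the double hairpins by higher ITGA2, ITGA5, ITGAL, ITGB1, LAMB3 and LAMC3 with lower LAMA3 and LAMA5. In BRG1 against NS, 10 of the 28 tested members were called higher and 3 lower at an adjusted p under 0.05 in edgeR's quasi-likelihood test, where 12.5% of all 14621 genes tested were called higher and 9.97% lower (22.5% in all). In BRM against NS, 2 were higher and 4 lower, where 7.66% of the tested genes were called higher and 6.26% lower (13.9% in all). In double against NS, 6 were higher and 2 lower, beside 11.8% and 9.9% of the tested genes (21.6% in all). The median log2 fold change of the 28 was 0.51 in BRG1, -0.17 in BRM and 0.0060 in double, against medians of 0.019, 0.032 and 0.015 over all tested genes. The alpha chains had the highest median in BRG1, 1.14 over 12 tested genes, with 5 higher and 0 lower, while 7 of the 12 had an unadjusted p under 0.05. Of all 14621 tested genes, 4927 had an unadjusted p under 0.05 in BRG1. The 6 tested beta chains had a median of 1.0 with 3 higher and 1 lower, and the 10 laminin chains one of -0.17 with 2 higher and 2 lower. These 3 comparisons share the NS libraries, so the same direction of a gene in several of them is not independent evidence. Their values are set side by side, and no count of shared calls is read. In these bulk libraries, fewer expressing cells and less RNA per cell cannot be told apart.

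**Figure D1:**
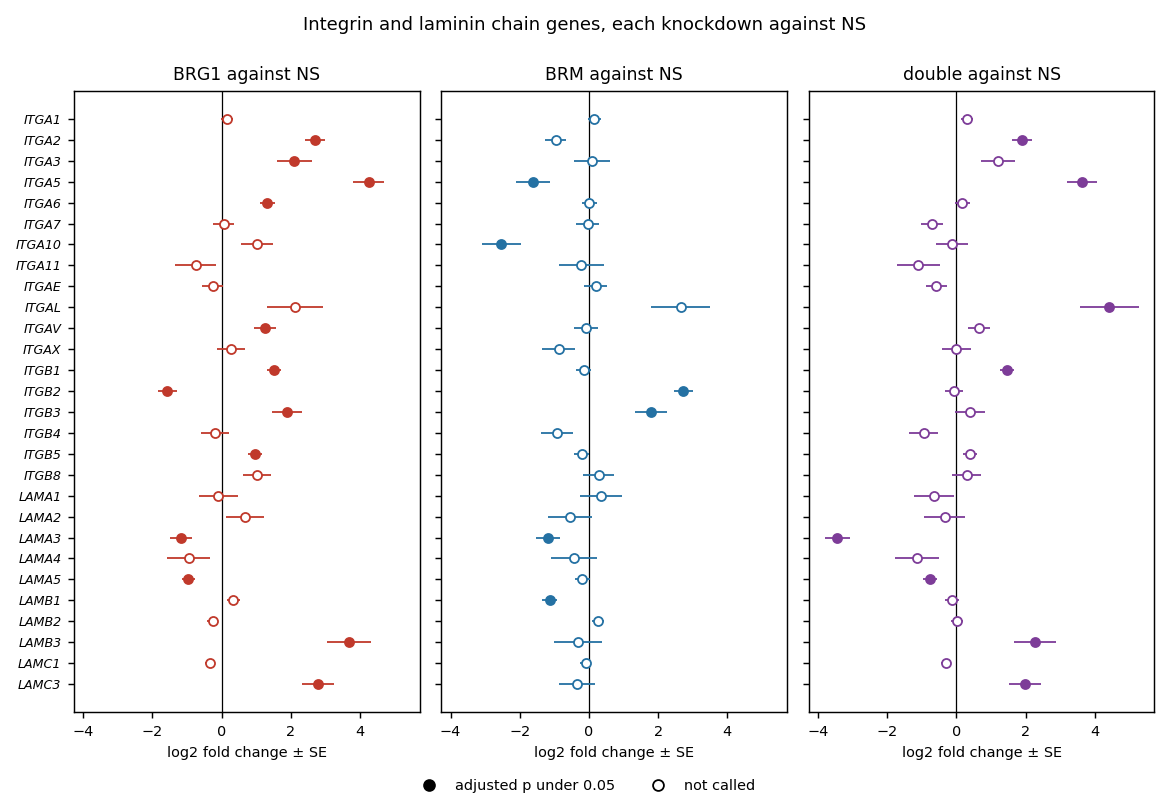
Log2 fold change of the 28 tested integrin and laminin chain genes in BRG1, BRM and double knockdown against NS; points are edgeR estimates, bars are ± 1 SE, and filled points have an adjusted p under 0.05. ITGA5 lies at 4.25 in BRG1, -1.62 in BRM and 3.63 in double, and LAMA3 at -1.17, -1.18 and -3.44.

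In the libraries numbered 1 and 2 alone, 12 members were called higher and 3 lower in BRG1 against NS, beside 21.7% and 18.8% of all tested genes. In the same libraries, 4 members were called higher and 5 lower in BRM against NS, beside 15.8% and 13.9% of all tested genes, and 10 members were called higher and 4 lower in double against NS, beside 15.5% and 15% of all tested genes. In the libraries numbered 3 and 4 alone, 10 members were called higher and 3 lower in BRG1 against NS, beside 15.3% and 12% of all tested genes. There 5 members were called higher and 4 lower in BRM against NS, beside 14.7% and 8.23% of all tested genes, and 8 members were called higher and 4 lower in double against NS, beside 20.1% and 16% of all tested genes. The second set has 1 BRM library, which was assumed to vary like the other groups. Relative to counting error, the mean squared count difference was 5.21 between NS 1 and NS 2 and 14.1 between NS 3 and NS 4. Across the sets it was 132 to 204 in NS, and in every group the sets were closer within than across. The p-values within sets, and of differences between sets, are measured against this smaller spread. They are not on the same footing as those of the whole fit.

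ITGA5, at chr12:54395261-54419460 on the minus strand of GRCh38, encodes the alpha chain of the fibronectin receptor, which pairs with ITGB1 alone. It had the largest rise of the members in BRG1 and moved the other way in BRM. ITGA5 had 63.3, 64.7, 83.7 and 91.5 CPM in the BRG1 libraries, 0.806, 1.55 and 1.43 CPM in the BRM libraries, 24.1, 21.7, 82.7 and 68.7 CPM in the double libraries and 4.81, 5.29, 2.95 and 2.88 CPM in the NS libraries. Every BRG1 and every double library lay above every NS library, and every BRM library lay below. On the log2 scale the difference from NS was 4.25 ± 0.44 (SE; edgeR adjusted p = 1.96e-05) in BRG1, -1.62 ± 0.49 (adjusted p = 0.0396) in BRM and 3.63 ± 0.43 (adjusted p = 4.91e-05) in double. The lower level in BRM lost its call without any 1 of 5 libraries, namely NS 1 (0.0853), NS 2 (0.081), BRM 1 (0.108), BRM 2 (0.0935) or BRM 3 (0.0802), these being adjusted p-values, and without a filter on low counts (0.0557). The double libraries fell into 2 pairs, with a mean of 22.9 CPM in libraries 1 and 2 and 75.7 in 3 and 4. Within those sets the log2 fold change of double against NS was 2.19 in libraries 1 and 2 and 4.70 in 3 and 4, and the sets differed (adjusted p = 0.000951). In BRG1 the set values were 3.67 and 4.91 (adjusted p of the difference = 0.0375).

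The RefSeq promoter window of ITGA5, 250 bases before to 50 after RefSeq's start of the gene (GRCh38.p14, chr12:54419217-54419516, minus strand), is shown because ITGA5 had the widest spread between the single knockdowns of the matrix-binding integrins. Capitals mark a GGAATG match, the core bound by TEAD factors, and a TGANTCA match, the motif bound by AP-1, found by searching both strands. RefSeq's start lies inside the span that GENCODE gives the gene, and so do both matches.
ITGA5: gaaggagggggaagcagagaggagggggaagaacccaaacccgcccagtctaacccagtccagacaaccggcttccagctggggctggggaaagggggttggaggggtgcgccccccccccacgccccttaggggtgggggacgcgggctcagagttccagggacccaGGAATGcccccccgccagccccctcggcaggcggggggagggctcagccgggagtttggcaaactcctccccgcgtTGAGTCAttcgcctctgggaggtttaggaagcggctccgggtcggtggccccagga
Of 35116 RefSeq promoters of the same length, 7.71% hold TGANTCA and 14% hold GGAATG. Promoters were found for 25 of the 35 members, of which 2 hold TGANTCA (ITGA5 and LAMA3) and 4 hold GGAATG (ITGA5, ITGA10, ITGB1 and LAMA2). The SP1 motif GGGCGG is held by 14 of the 25, against 45% of all promoters. A match describes letters in this window and shows no binding.

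Among the collagen receptors, ITGA2, at chr5:52989326-53094779, encodes the alpha chain that binds fibrillar collagens together with ITGB1, and it rose in both groups with the BRG1 hairpin. ITGA2 had 612, 781, 474 and 587 CPM in the BRG1 libraries, 41.2, 44.0 and 59.8 CPM in the BRM libraries, 344, 272, 398 and 384 CPM in the double libraries and 59.1, 63.3, 97.0 and 157 CPM in the NS libraries. The BRG1 and the double libraries were all above the NS libraries, and the double libraries were all below the BRG1 libraries. Relative to NS the log2 fold change was 2.70 ± 0.30 (SE; edgeR adjusted p = 2.86e-05) in BRG1 and 1.89 ± 0.29 (adjusted p = 0.000346) in double. In BRM it was -0.96 ± 0.31 (adjusted p = 0.0527) and passed the threshold without NS 1 or NS 2 (adjusted p = 0.0288 and 0.0303). NS itself was uneven, with its libraries 1 and 2 lower than 3 and 4, and the log2 fold change of BRG1 was 3.51 within libraries 1 and 2 and 2.06 within 3 and 4 (adjusted p of the difference = 0.03).

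ITGA10, a collagen-binding chain best known from cartilage (chr1:145891208-145910189, minus strand), fell in BRM. ITGA10 had 11.4, 13.8, 13.3 and 16.9 CPM in the BRG1 libraries, 0.564, 0.700 and 2.12 CPM in the BRM libraries, 7.60, 5.80, 5.55 and 5.78 CPM in the double libraries and 2.67, 2.80, 10.5 and 11.1 CPM in the NS libraries. The BRM libraries were all below and the BRG1 libraries all above the NS libraries, whose libraries 1 and 2 were lower than 3 and 4, and double overlapped NS. edgeR gave a log2 fold change against NS of 1.04 ± 0.46 (adjusted p = 0.127) in BRG1, -2.53 ± 0.56 (adjusted p = 0.00827) in BRM and -0.13 ± 0.46 (adjusted p = 0.888) in double. Without BRM 2 the value in BRM was -2.33 (adjusted p = 0.0538), without BRM 3 it was -3.44 (adjusted p = 0.00427), and with BRM and NS fitted alone it was -2.59 (adjusted p = 0.0747). With the replicate number as a block, ITGA10 was called in BRG1, at 1.22 (adjusted p = 0.0252), though the labels do not say that the numbers pair libraries. In double the direction turned between the sets, with 1.30 (adjusted p = 0.000978) in libraries 1 and 2 and -0.93 (adjusted p = 0.004) in 3 and 4, and the difference between the sets passed the test (adjusted p = 0.00237). The set difference in BRG1 was called too, with 2.20 in libraries 1 and 2 and 0.48 in 3 and 4 (adjusted p = 0.0175).

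The other collagen receptor chains were not called in any comparison with NS. ITGA1, which binds basement membrane collagen and is a main integrin of normal hepatocytes, ranged over 31.2 to 53.1 CPM over all libraries, with log2 fold changes of 0.16 in BRG1, 0.15 in BRM and 0.30 in double. ITGA11, a fibroblast collagen receptor, did not exceed 1.12 CPM. PELO lies in ITGA1 on the same strand, so their counts depend on how the shared transcripts were resolved.

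**Figure D2:**
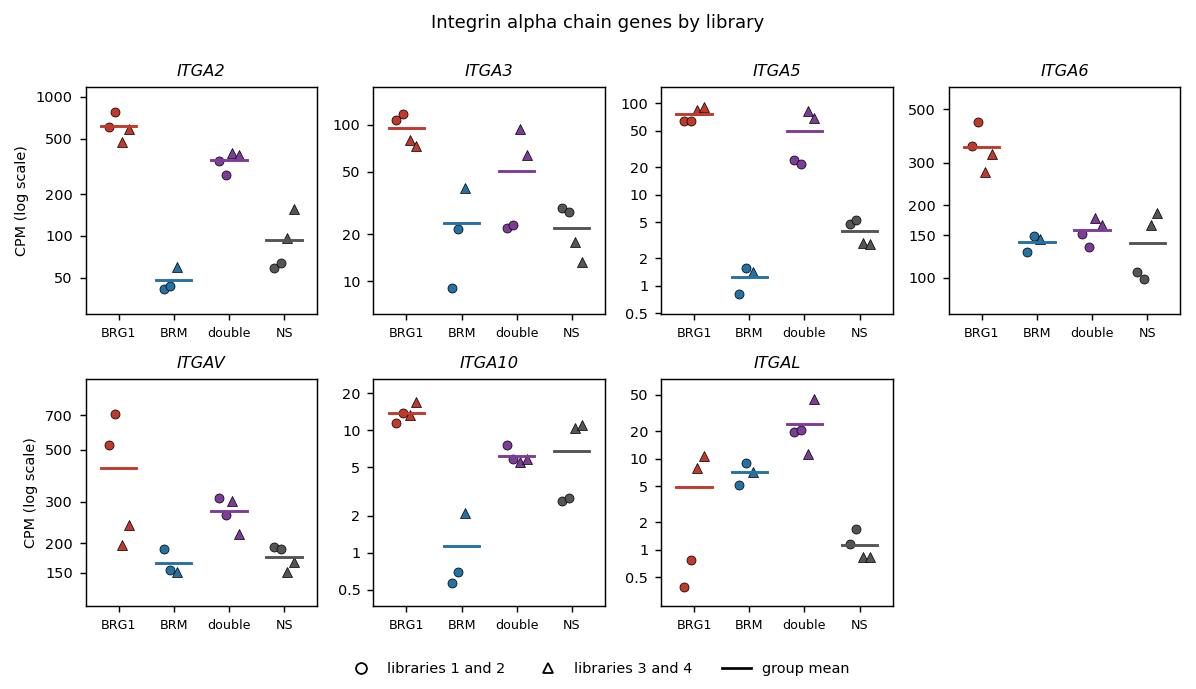
CPM (TMM-scaled, log axis) of 7 integrin alpha chain genes in each library by group; circles are libraries 1 and 2, triangles libraries 3 and 4, bars the group means. ITGA2 and ITGA5 lie above every NS library in all BRG1 and double libraries, while ITGA3 and ITGA5 in double and ITGAL in BRG1 split by library number.

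ITGAV, at chr2:186590065-186680901, encodes the alpha chain that binds vitronectin and other RGD proteins and latent TGF-beta, with ITGB1, ITGB3, ITGB5, ITGB6 or ITGB8 as partner. It rose in BRG1. ITGAV had 523, 709.6, 196 and 239.6 CPM in the BRG1 libraries, 188, 155 and 151 CPM in the BRM libraries, 312, 265, 304 and 218 CPM in the double libraries and 194, 189, 151 and 166 CPM in the NS libraries. The BRG1 and the double libraries were all above NS, but BRG1 libraries 3 and 4 were much lower than BRG1 libraries 1 and 2. Fitted against NS, the log2 fold change was 1.25 ± 0.32 (SE; edgeR adjusted p = 0.0116) in BRG1, -0.087 ± 0.34 (adjusted p = 0.911) in BRM and 0.65 ± 0.32 (adjusted p = 0.17) in double. Within libraries 1 and 2 BRG1 gave 1.69 (adjusted p = 2.61e-05) and within 3 and 4 it gave 0.46 (adjusted p = 0.103), and the sets differed (adjusted p = 0.04). In double the set values were 0.59 (adjusted p = 0.0355) and 0.72 (adjusted p = 0.0118), measured against the smaller spread within sets. The call in BRG1 was lost without BRG1 2, at 0.82 (adjusted p = 0.0604), and with BRG1 and NS fitted alone, at 1.20 (adjusted p = 0.0523).

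ITGB5 (chr3:124761948-124901418, minus strand), a vitronectin receptor chain that pairs with ITGAV and was the most abundant of its beta partners after ITGB1 per length, rose in BRG1. ITGB5 had 276, 268, 325 and 343 CPM in the BRG1 libraries, 94.6, 134 and 170.4 CPM in the BRM libraries, 186, 169.9, 219 and 231 CPM in the double libraries and 130.4, 121, 167 and 197 CPM in the NS libraries. All BRG1 libraries were above all NS libraries, and BRM and double overlapped NS. The log2 fold change against NS was 0.98 ± 0.21 (adjusted p = 0.00327) in BRG1, -0.21 ± 0.22 (adjusted p = 0.612) in BRM and 0.39 ± 0.20 (adjusted p = 0.2) in double. With the replicate block, the double value was 0.40 (adjusted p = 0.0236). ITGB5-AS1 lies opposite to it.

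ITGB3 (chr17:47253846-47311816), which pairs with ITGAV on many cells and with ITGA2B on platelets, rose in each single knockdown and was not called in double. ITGB3 had 2.64, 3.72, 2.35 and 2.55 CPM in the BRG1 libraries, 1.61, 3.75 and 2.49 CPM in the BRM libraries, 0.547, 0.540, 1.40 and 1.43 CPM in the double libraries and 1.07, 0.320, 0.830 and 0.744 CPM in the NS libraries. The BRG1 and BRM libraries were all above the NS libraries, and the double libraries overlapped NS. These levels rest on 67, 72, 54 and 52 counts in the BRG1 libraries, 20, 75 and 54 in BRM, 10, 8, 40 and 25 in double and 22, 4, 9 and 16 in NS. On the log2 scale the difference from NS was 1.90 ± 0.43 (SE; edgeR adjusted p = 0.00563) in BRG1, 1.80 ± 0.46 (adjusted p = 0.0172) in BRM and 0.40 ± 0.44 (adjusted p = 0.58) in double. The call in BRM was lost without BRM 2, at 1.40 (adjusted p = 0.118), and with BRM and NS fitted alone, at 1.73 (adjusted p = 0.0656). AC068234.1 shares the strand and part of the span of ITGB3, so the count is uncertain to that extent. ITGB8, which with ITGAV binds latent TGF-beta, had 0.369 to 1.61 CPM, and its log2 fold changes of 1.01 in BRG1, 0.28 in BRM and 0.30 in double were not called.

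ITGA3 and ITGA6 encode laminin-binding alpha chains and rose in BRG1. ITGA3 lies at chr17:50055968-50090481 with no overlapping gene. ITGA3 had 107, 118, 80.3 and 72.7 CPM in the BRG1 libraries, 9.11, 21.7 and 39.4 CPM in the BRM libraries, 21.9, 22.8, 93.8 and 63.9 CPM in the double libraries and 29.1, 27.9, 17.7 and 13.3 CPM in the NS libraries. All BRG1 libraries were above all NS libraries, BRM overlapped NS, and in double libraries 1 and 2 were within the NS range while 3 and 4 were above it. Relative to NS the log2 fold change was 2.10 ± 0.50 (SE; edgeR adjusted p = 0.00751) in BRG1, 0.094 ± 0.52 (adjusted p = 0.938) in BRM and 1.20 ± 0.49 (adjusted p = 0.0964) in double. In double the set values were -0.35 (adjusted p = 0.417) and 2.36 (adjusted p = 0.000135) in libraries 1 and 2 and in 3 and 4, and they differed (adjusted p = 0.00588). In BRM they were -0.86 and 1.36 (adjusted p of the difference = 0.0355).

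ITGA6, at chr2:172427354-172506282, pairs with ITGB1 or, in hemidesmosomes, with ITGB4. ITGA6 had 353, 441, 274 and 324 CPM in the BRG1 libraries, 128, 149 and 144 CPM in the BRM libraries, 152, 134, 177 and 165 CPM in the double libraries and 105, 98.9, 165 and 186 CPM in the NS libraries. The BRG1 libraries were all above NS, and BRM and double overlapped it. edgeR gave a log2 fold change against NS of 1.32 ± 0.21 (adjusted p = 0.000581) in BRG1, 0.016 ± 0.23 (adjusted p = 0.979) in BRM and 0.18 ± 0.21 (adjusted p = 0.615) in double. The BRG1 value was 1.96 within libraries 1 and 2 and 0.77 within 3 and 4 (adjusted p of the difference = 0.0184). ITGB4, its hemidesmosome partner, had 12.0 ± 5.07 CPM in BRG1, 7.18 ± 4.76 in BRM, 7.10 ± 3.25 in double and 13.7 ± 4.01 in NS (mean ± SD). ITGB4 was not called, with log2 fold changes of -0.18 ± 0.41 (adjusted p = 0.814), -0.92 ± 0.46 (adjusted p = 0.216) and -0.95 ± 0.42 (adjusted p = 0.127), but with the replicate block double against NS gave -0.98 (adjusted p = 0.00333). Within the sets double against NS gave -1.02 (adjusted p = 0.0116) in libraries 1 and 2 and -0.92 (adjusted p = 0.0132) in 3 and 4. Without BRM 3 the BRM value was -1.66 (adjusted p = 0.0397), and without double 4 the double value was -1.35 (adjusted p = 0.0403). ITGA7, the laminin receptor chain of muscle, had 0.711 to 2.72 CPM and log2 fold changes of 0.063, -0.034 and -0.71, none called.

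ITGB1 (chr10:32900319-33005792, minus strand), the common beta chain of the collagen, fibronectin and laminin receptors, rose in both groups with the BRG1 hairpin. ITGB1 had 1445, 1556, 918 and 967 CPM in the BRG1 libraries, 403, 389 and 367 CPM in the BRM libraries, 1238, 1170.3, 1374 and 925 CPM in the double libraries and 429, 387, 399 and 504 CPM in the NS libraries. All BRG1 and all double libraries were above all NS libraries, and the BRM libraries overlapped NS. Fitted against NS, the log2 fold change was 1.51 ± 0.20 (SE; edgeR adjusted p = 0.000126) in BRG1, -0.15 ± 0.21 (adjusted p = 0.716) in BRM and 1.45 ± 0.20 (adjusted p = 0.000164) in double. Within the sets BRG1 gave 1.88 and 1.06, double 1.56 and 1.35. The promoter window of ITGB1 (GRCh38.p14, chr10:32958181-32958480, minus strand) lies inside the span GENCODE gives the gene. It is shown because ITGB1 was the most abundant member per length, and capitals mark its GGAATG match.
ITGB1: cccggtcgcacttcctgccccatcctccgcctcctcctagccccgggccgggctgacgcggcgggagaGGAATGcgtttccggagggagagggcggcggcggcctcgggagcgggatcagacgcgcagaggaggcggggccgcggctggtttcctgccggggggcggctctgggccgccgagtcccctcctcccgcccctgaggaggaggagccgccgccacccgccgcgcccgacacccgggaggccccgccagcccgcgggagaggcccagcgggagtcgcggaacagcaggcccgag
No TGANTCA letters occur in this window.

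The alpha chains that pair with ITGB1 were summed per length and set beside it in each library. Their summed level was 206 ± 56.0 CPM per kilobase in BRG1, 52.9 ± 1.93 in BRM, 117 ± 17.1 in double and 60.6 ± 10.2 in NS (mean ± SD). The ratio of ITGB1 to that sum was 0.989 ± 0.0884 in BRG1, 1.22 ± 0.0978 in BRM, 1.69 ± 0.307 in double and 1.19 ± 0.116 in NS, so it was highest in double, where its libraries ranged over 1.29 to 2.02 and overlapped those of NS, 1.07 to 1.33. ITGA2 made up 38.2 ± 3.28% of the alpha sum in BRG1, 11.5 ± 1.95% in BRM, 37.8 ± 2.19% in double and 18.9 ± 5.72% in NS. ITGA6 made up 26.2 ± 2.06%, 40.7 ± 2.99%, 20.6 ± 0.811% and 34.5 ± 5.89% in those groups, and ITGA5 5.27 ± 2.15%, 0.314 ± 0.0976%, 5.32 ± 2.82% and 0.914 ± 0.405%. The 4 groups thus differed in the mix of alpha chains: with the BRG1 hairpin ITGA2 came first, and in BRM and NS ITGA6 and ITGAV did. These sums describe transcripts, not receptors on the surface.

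**Figure D3:**
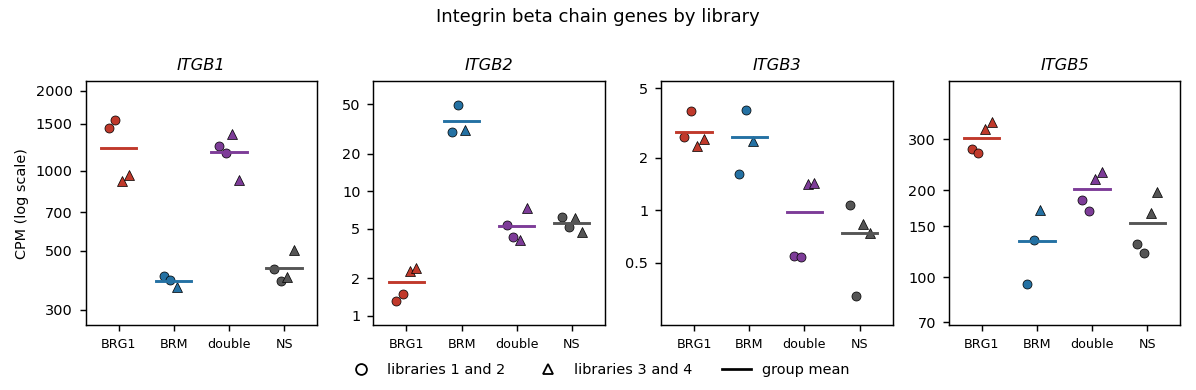
CPM (TMM-scaled, log axis) of 4 integrin beta chain genes in each library by group, with symbols and bars as for the alpha chains. ITGB1 is high in BRG1 and double, ITGB2 is high in BRM and low in BRG1, and ITGB3 is high in BRG1 and BRM.

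ITGB2 (chr21:44885953-44931989, minus strand) encodes the beta chain of leukocyte integrins and moved in opposite directions in the single knockdowns. ITGB2 had 1.30, 1.50, 2.31 and 2.41 CPM in the BRG1 libraries, 30.1, 49.4 and 31.3 CPM in the BRM libraries, 5.36, 4.32, 4.04 and 7.38 CPM in the double libraries and 6.26, 5.21, 6.09 and 4.69 CPM in the NS libraries. The BRM libraries were all above and the BRG1 libraries all below the NS libraries, and the double libraries overlapped NS. The log2 fold change against NS was -1.56 ± 0.27 (SE; edgeR adjusted p = 0.000863) in BRG1, 2.73 ± 0.28 (adjusted p = 5.07e-05) in BRM and -0.078 ± 0.26 (adjusted p = 0.879) in double. ITGAL (chr16:30472658-30523185), which pairs with ITGB2 alone, rose in double. ITGAL had 0.394, 0.775, 7.92 and 10.6 CPM in the BRG1 libraries, 5.16, 8.85 and 7.19 CPM in the BRM libraries, 19.5, 20.4, 11.3 and 45.1 CPM in the double libraries and 1.17, 1.68, 0.830 and 0.837 CPM in the NS libraries. The double and the BRM libraries were all above NS, while in BRG1 libraries 1 and 2 were below NS and libraries 3 and 4 above it. On the log2 scale the difference from NS was 2.12 ± 0.81 (adjusted p = 0.075) in BRG1, 2.65 ± 0.85 (adjusted p = 0.0513) in BRM and 4.42 ± 0.85 (adjusted p = 0.00196) in double. In BRG1 the value was -1.28 (adjusted p = 0.227) within libraries 1 and 2 and 3.46 (adjusted p = 0.00353) within 3 and 4, a difference that passed the test (adjusted p = 0.0471). It was called without BRG1 1, at 2.47 (adjusted p = 0.0219), or without BRG1 2, at 2.44 (adjusted p = 0.0396), and by DESeq2, at 2.11 (adjusted p = 0.0209). In BRM it was called by DESeq2, at 2.64 (adjusted p = 0.00856), and within each set, at 2.35 (adjusted p = 0.0179) in libraries 1 and 2 and 3.10 (adjusted p = 0.0144) in 3 and 4.

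Of the other leukocyte-type chains that were tested, ITGAX, a myeloid partner of ITGB2, had 0.161 to 0.915 CPM, and ITGAE, which binds E-cadherin with ITGB7, had 5.55 to 17.1 CPM, and neither was called against NS. Of 4 leukocyte markers, CD3E had 0 counts in all libraries and PTPRC at most 17, while CD68 and LYZ were expressed. Their summed level, most of it LYZ, was 687 to 1402 CPM in BRG1, 131 to 240.1 in BRM, 327 to 442 in double and 482 to 1696 in NS. Taken singly they differed: LYZ had log2 fold changes against NS of -0.043 (adjusted p = 0.961) in BRG1, -3.18 (adjusted p = 0.00112) in BRM and -1.71 (adjusted p = 0.0111) in double, and CD68 of 0.31 (adjusted p = 0.422) in BRG1, 0.91 (adjusted p = 0.0302) in BRM and 0.90 (adjusted p = 0.0159) in double. Their part in the values of ITGB2 and ITGAL was not tested. ITGB2-AS1 lies opposite ITGB2, AL844908.2 shares its strand, and 4 genes lie opposite ITGAL. The strand setting of the counting is not given in the sources used here, so reads of overlapping genes may have been shared.

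Among the laminin chains, LAMA3 (chr18:23689443-23956222), the alpha chain of epithelial laminins of skin and lining epithelia, fell in each group against NS. LAMA3 had 2.88, 4.14, 1.70 and 2.60 CPM in the BRG1 libraries, 2.34, 2.60 and 3.46 CPM in the BRM libraries, 0.328, 0.405, 0.948 and 0.572 CPM in the double libraries and 6.89, 6.97, 5.44 and 6.13 CPM in the NS libraries. The 3 knockdown groups were all below every NS library, and every double library was below every BRG1 and BRM library. The counts were 73, 80, 39 and 53 in BRG1, 29, 52 and 75 in BRM, 6, 6, 27 and 10 in double and 142, 87, 59 and 132 in NS. Relative to NS the log2 fold change was -1.17 ± 0.32 (SE; edgeR adjusted p = 0.0169) in BRG1, -1.18 ± 0.36 (adjusted p = 0.0397) in BRM and -3.44 ± 0.36 (adjusted p = 1.84e-05) in double. The call in BRM was lost without BRM 1, BRM 2 or any 1 of the 4 NS libraries, with adjusted p-values of 0.102, 0.125, 0.0806, 0.0644, 0.0541 and 0.0659. For double the set values were -4.23 within libraries 1 and 2 and -2.88 within 3 and 4 (adjusted p of the difference = 0.172). Without a filter on low counts the BRM value was -1.21 (adjusted p = 0.0544). The RefSeq window of LAMA3 (GRCh38.p14, chr18:23872770-23873069, plus strand) lies inside the span GENCODE gives the gene, at the starts of transcripts shorter than the longest, and is shown because it holds TGANTCA at 2 places, in capitals.
LAMA3: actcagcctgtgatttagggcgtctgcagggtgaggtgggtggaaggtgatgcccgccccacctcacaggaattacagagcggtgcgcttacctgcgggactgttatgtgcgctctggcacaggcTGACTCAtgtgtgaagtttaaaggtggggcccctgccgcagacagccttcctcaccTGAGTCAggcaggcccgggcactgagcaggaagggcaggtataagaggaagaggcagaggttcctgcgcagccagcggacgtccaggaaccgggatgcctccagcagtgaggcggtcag
It holds no GGAATG match.

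LAMB3 (chr1:209614870-209652466, minus strand) encodes the beta chain that assembles with LAMA3, and it rose where the BRG1 hairpin was used. LAMB3 had 8.09, 8.37, 8.61 and 8.84 CPM in the BRG1 libraries, 0.322, 0.700 and 0.507 CPM in the BRM libraries, 0.929, 0.607, 6.53 and 4.52 CPM in the double libraries and 0.777, 0.881, 0.553 and 0.418 CPM in the NS libraries. The BRG1 libraries were all above NS and close together, and in double libraries 1 and 2 overlapped NS while 3 and 4 were above it. The counts were 205, 162, 198 and 180 in BRG1, 4, 14 and 11 in BRM, 17, 9, 186 and 79 in double and 16, 11, 6 and 9 in NS. edgeR gave a log2 fold change against NS of 3.69 ± 0.62 (SE; edgeR adjusted p = 0.000811) in BRG1, -0.32 ± 0.70 (adjusted p = 0.829) in BRM and 2.27 ± 0.61 (adjusted p = 0.0147) in double. The double value was -0.079 (adjusted p = 0.932) within libraries 1 and 2 and 3.54 (adjusted p = 1.21e-05) within 3 and 4, the sets differed (adjusted p = 0.00354), and the call was lost without double 3, at 1.58 (adjusted p = 0.0759). LAMC3 (chr9:131009082-131094473), a minor gamma chain, followed the same group order. LAMC3 had 7.10, 7.50, 7.79 and 7.57 CPM in the BRG1 libraries, 0.403, 0.900 and 1.15 CPM in the BRM libraries, 1.91, 1.69, 7.59 and 5.84 CPM in the double libraries and 0.728, 1.12, 1.11 and 1.35 CPM in the NS libraries. All BRG1 and all double libraries were above all NS libraries, and BRM overlapped NS. Fitted against NS, the log2 fold change was 2.79 ± 0.47 (adjusted p = 0.000752) in BRG1, -0.35 ± 0.52 (adjusted p = 0.733) in BRM and 1.99 ± 0.46 (adjusted p = 0.00653) in double, where the sets gave 1.0 and 2.43.

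Of the abundant laminin chains, LAMA5 and LAMB1 were called against NS and LAMB2 and LAMC1 were not. LAMA5 (chr20:62307955-62367312, minus strand), the alpha chain of most adult epithelial basement membranes, fell in BRG1 and double. LAMA5 had 138, 205, 170.5 and 155 CPM in the BRG1 libraries, 318, 232 and 300.2 CPM in the BRM libraries, 202, 168, 148 and 253 CPM in the double libraries and 276, 281, 373 and 366 CPM in the NS libraries. Every BRG1 and double library was below every NS library, while BRM overlapped NS. The log2 fold change against NS was -0.95 ± 0.20 (SE; edgeR adjusted p = 0.00316) in BRG1, -0.19 ± 0.21 (adjusted p = 0.632) in BRM and -0.75 ± 0.20 (adjusted p = 0.0139) in double. Within libraries 1 and 2 the double value was -0.59 (adjusted p = 0.088).

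LAMB1 (chr7:107923799-108003255, minus strand), a widely expressed beta chain, fell in BRM. LAMB1 had 433, 447, 310.3 and 293 CPM in the BRG1 libraries, 129, 124 and 148 CPM in the BRM libraries, 313, 304, 183 and 274 CPM in the double libraries and 321, 277, 248 and 322 CPM in the NS libraries. The BRM libraries were all below every library of the other 3 groups, and BRG1 and double overlapped NS. On the log2 scale the difference from NS was 0.34 ± 0.20 (adjusted p = 0.239) in BRG1, -1.13 ± 0.22 (adjusted p = 0.00354) in BRM and -0.12 ± 0.20 (adjusted p = 0.724) in double. LAMB2, the alternative beta chain, was not called against NS, with means of 177 ± 9.94 CPM in BRG1, 255 ± 34.6 in BRM, 214 ± 45.2 in double and 211 ± 27.8 in NS. Per length, LAMB1 made up 63.4 ± 5.67% of the sum of LAMB1 and LAMB2 in BRG1, 30.7 ± 1.19% in BRM, 51.3 ± 7.55% in double and 53.8 ± 4.11% in NS. DLD lies opposite to LAMB1.

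LAMC1, the common gamma chain, had means of 288 ± 13.5 CPM in BRG1, 341 ± 19.2 in BRM, 292 ± 46.7 in double and 362 ± 43.0 in NS. Its log2 fold changes against NS were -0.33 ± 0.14 (adjusted p = 0.122), -0.088 ± 0.16 (adjusted p = 0.784) and -0.31 ± 0.14 (adjusted p = 0.144). With the replicate block BRG1 against NS was called at -0.32 (adjusted p = 0.0494), and so it was without NS 2, at -0.46 (adjusted p = 0.0466). Without double 4 the double value was -0.47 (adjusted p = 0.0309). LAMA1, a chain of embryonic basement membranes, LAMA2, of muscle and nerve, and LAMA4, of vessels, had 0.197 to 1.36, 0.0547 to 0.827 and 0.0491 to 0.801 CPM and were not called.

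**Figure D4:**
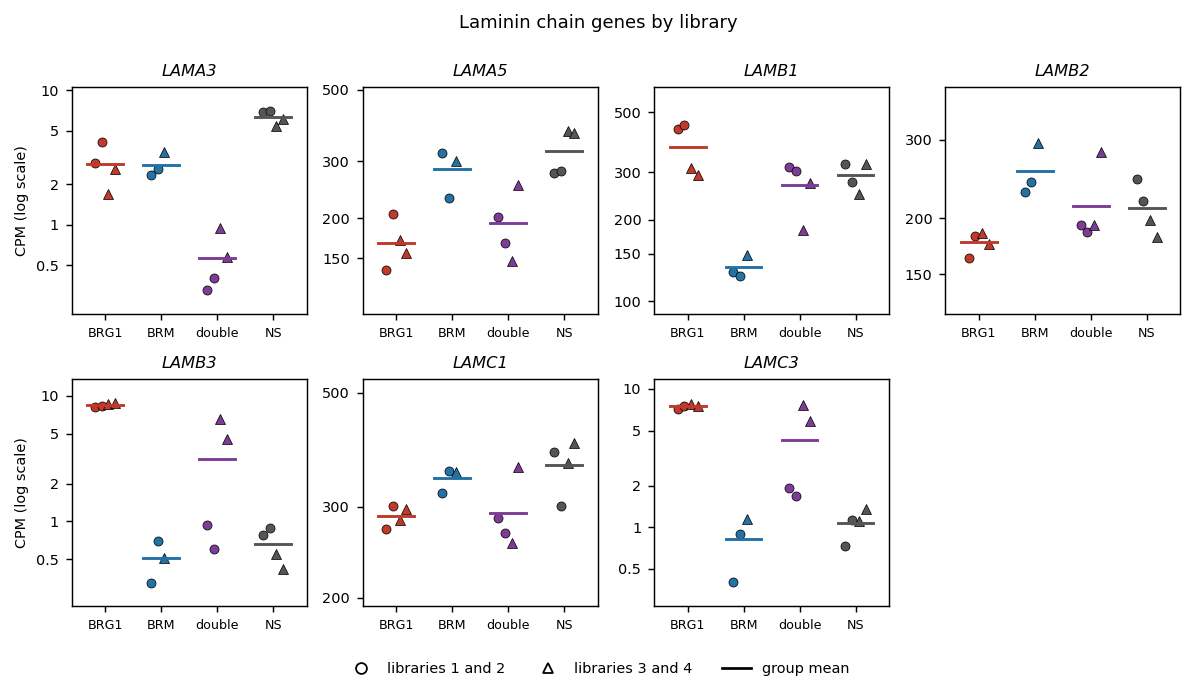
CPM (TMM-scaled, log axis) of 7 laminin chain genes in each library by group, with symbols and bars as for the alpha chains. LAMA3 is lowest in double, LAMB1 is lowest in BRM, and LAMB3 and LAMC3 are high in BRG1 and split by library number in double.

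BRG1 set directly against BRM knockdown had higher ITGA2, ITGA3, ITGA5, ITGA6, ITGA10, ITGAV, ITGB1 and ITGB5 and lower ITGB2 among the receptor chains. In BRG1 against BRM, 11 members were called higher and 3 lower, where 17.2% of the tested genes were called higher and 16.7% lower (33.9% in all). The largest difference among those higher was that of ITGA5, 5.87 ± 0.55 (SE; edgeR adjusted p = 3.15e-06), followed by LAMB3 at 4.01 ± 0.71 (adjusted p = 0.000573), ITGA2 at 3.67 ± 0.35 (adjusted p = 3.69e-06) and ITGA10 at 3.57 ± 0.58 (adjusted p = 0.000284). The others were LAMC3 (3.15), ITGA3 (2.01), ITGB1 (1.66), LAMB1 (1.47), ITGAV (1.34), ITGA6 (1.31) and ITGB5 (1.19), as log2 differences. The genes lower in BRG1 than in BRM were ITGB2, at -4.29 ± 0.29 (adjusted p = 3.41e-07), LAMA5, at -0.76 ± 0.21 (adjusted p = 0.0119), and LAMB2, at -0.53 ± 0.17 (adjusted p = 0.0293). The call of LAMB2 was lost without BRG1 1 (0.0755), BRG1 2 (0.0505), BRM 2 (0.0519) or BRM 3 (0.111), in adjusted p. LAMA3 and ITGB3, which differed from NS in each single knockdown, gave 0.0092 and 0.097 here, with ± 2 SE intervals of -0.69 to 0.71 and -0.77 to 0.97. With the replicate block, ITGB4 was called as well, at 0.62 (adjusted p = 0.0483).

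Double against BRG1 knockdown asks what the added BRM hairpin changed. SMARCA4 itself was higher in double than in BRG1, by 0.73 ± 0.16 (adjusted p = 0.00858) on the log2 scale, and its part in this comparison was not tested. Called higher was ITGB2, at 1.49 ± 0.27 (SE; edgeR adjusted p = 0.00258), and called lower were LAMA3 at -2.28 ± 0.35 (adjusted p = 0.00097), ITGB3 at -1.50 ± 0.42 (adjusted p = 0.0328) and ITGA6 at -1.15 ± 0.21 (adjusted p = 0.00334), where 4.1% of the tested genes were called higher and 6.72% lower (10.8% in all). The call of ITGB3 was lost without BRG1 1, BRG1 2, BRG1 4, double 1 or double 2, with adjusted p of 0.0641, 0.0954, 0.051, 0.104 and 0.102. ITGB1 differed by -0.054, with a ± 2 SE interval of -0.45 to 0.34, and ITGA5 by -0.62, with an interval of -1.38 to 0.14. Here the count of lower calls depended on the libraries, with 12 within libraries 1 and 2, where 15.6% of all tested genes were called lower, and 5 within 3 and 4, where 7.51% were. The share of all tested genes whose sets differed was not counted, so the number of such members is not read as a trait of them. The sets differed for 6 members: ITGA3 (-2.33 and 0.046), ITGA5 (-1.48 and -0.21), ITGAL (5.12 and 1.60), ITGAV (-1.10 and 0.26), LAMB3 (-3.39 and -0.65) and LAMC3 (-2.01 and -0.19), as log2 differences in the first and the second set. Thus in libraries 1 and 2 these chains, ITGAL apart, were lower in double than in BRG1, and within libraries 3 and 4 none of the 6 passed the test.

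Double against BRM knockdown asks what the added BRG1 hairpin changed. Called higher were ITGA5 at 5.25 ± 0.54 (SE; edgeR adjusted p = 1.83e-05), ITGA2 at 2.85 ± 0.34 (adjusted p = 5.78e-05), LAMB3 at 2.60 ± 0.68 (adjusted p = 0.0154), ITGA10 at 2.41 ± 0.56 (adjusted p = 0.00747), LAMC3 at 2.34 ± 0.52 (adjusted p = 0.00555), ITGB1 at 1.61 ± 0.22 (adjusted p = 0.000185) and LAMB1 at 1.01 ± 0.22 (adjusted p = 0.00469). Called lower were ITGB2 at -2.81 ± 0.28 (adjusted p = 1.29e-05), LAMA3 at -2.27 ± 0.37 (adjusted p = 0.000627) and ITGB3 at -1.40 ± 0.44 (adjusted p = 0.0388). These 7 and 3 stand beside 9.32% and 9.74% of the tested genes (19.1% in all). LAMB3 lost its call without BRM 1, BRM 3 or double 3 (adjusted p = 0.0523, 0.0536 and 0.0508). ITGB3 lost it without BRM 2, BRM 3, double 1 or double 2 (adjusted p = 0.196, 0.0733, 0.106 and 0.0988). The set difference was not called for any member, but the second set holds 1 BRM library, so this does not show that the sets agreed. LAMB3 gave 0.52 in libraries 1 and 2 and 3.44 in 3 and 4, and its double and BRM libraries overlapped. ITGB3 gave -2.32 and -0.81 in those sets. All 10 called members kept their sign in both sets.

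The interaction asks whether both hairpins together gave the sum of their single log2 changes, a value below 0 meaning that double lay under that sum. The knockdowns were not equal across groups: mean SMARCA2 was lower in BRG1 than in NS, and SMARCA4 was higher in double than in BRG1. Their part in the interaction was not tested. It was called for 1 member, ITGB3, at -3.30 ± 0.62 (SE; edgeR adjusted p = 0.0296), with 0.499% of all tested genes called (0.103% positive, 0.397% negative). ITGB3 rose in each single knockdown and was near the NS level in double. The call was lost in 11 of the 15 fits that left out 1 library, and the within-set values were -4.41 (adjusted p = 0.00235) in libraries 1 and 2 and -2.46 (adjusted p = 0.0735) in 3 and 4. At an unadjusted p under 0.05 there were 5 of the 28 tested members, beside 1742 of all 14621 tested genes. ITGA6 gave -1.16 ± 0.31 (adjusted p = 0.12), ITGB2 -1.25 ± 0.38 (adjusted p = 0.166), LAMA3 -1.10 ± 0.49 (adjusted p = 0.379) and LAMB1 0.66 ± 0.29 (adjusted p = 0.37), none called. ITGA6 was called with the replicate block, at -1.25 (adjusted p = 0.0345), with DESeq2, at -1.13 (adjusted p = 0.0224), with the set as a covariate, at -1.24 (adjusted p = 0.0172), and within libraries 1 and 2, at -1.91 (adjusted p = 0.000307), but not within 3 and 4, at -0.52 (adjusted p = 0.22). ITGB2 was called with the set covariate, at -1.27 (adjusted p = 0.0437). For ITGA5 it was 1.0 with a ± 2 SE interval of -0.22 to 2.22, and for ITGB1 0.10 with one of -0.48 to 0.68.

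Several members split by library set in double. ITGA3 averaged 22.3 CPM in double libraries 1 and 2 and 78.8 in 3 and 4, ITGA5 22.9 and 75.7, LAMB3 0.768 and 5.53, and LAMC3 1.80 and 6.71. ITGA10 averaged 6.70 and 5.66 CPM in the same sets. SMARCA4 averaged 47.6 and 44.8 CPM there, and SMARCA2 2.51 and 2.62 CPM. The part of the knockdown level in these values was not tested. Against NS, the set difference was called for ITGA2, ITGA5, ITGA6, ITGA10, ITGAL and ITGAV in BRG1, for ITGA3 in BRM, and for ITGA3, ITGA5, ITGA10 and LAMB3 in double. For LAMC3 in double it was not called (edgeR adjusted p = 0.119). The share of all tested genes with such a difference was not counted, so these calls are not read as a trait of the members. The set goes with the mitochondrial share, and its part in these values beyond the within-set comparisons was not tested.

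**Figure D5:**
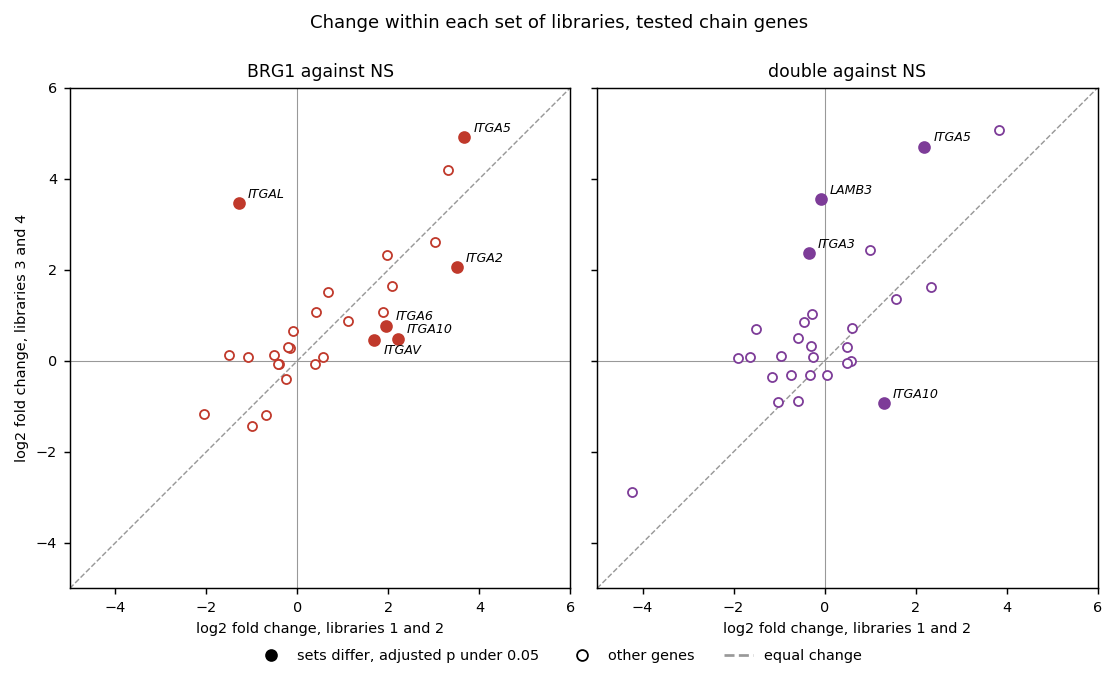
Log2 fold change against NS within libraries 3 and 4 (vertical) and within libraries 1 and 2 (horizontal) for the 28 tested members, in BRG1 (left) and double (right); the dashed line marks equal change and filled points have an adjusted p under 0.05 for the difference between the sets. In double, LAMB3 lies at -0.079 and 3.54 and ITGA3 at -0.35 and 2.36 (libraries 1 and 2, then 3 and 4).

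Genes that act with integrins were examined as 3 lists, beside 22.5% of all tested genes called in BRG1, 13.9% in BRM and 21.6% in double against NS. Of 37 adaptors and activators, 35 were tested, and 10 were higher and 4 lower in BRG1 against NS, 4 and 5 in BRM, and 8 and 6 in double. FERMT1, a kindlin that activates integrins, had log2 fold changes of 3.04 (adjusted p = 3.07e-06) in BRG1, -1.24 (adjusted p = 0.00485) in BRM and 2.06 (adjusted p = 3.49e-05) in double, and PXN, a focal adhesion scaffold, of 2.17 (adjusted p = 1.79e-05) in BRG1, -0.82 (adjusted p = 0.0295) in BRM and 1.11 (adjusted p = 0.00187) in double. Both were thus higher with the BRG1 hairpin and lower in BRM. FERMT2, another kindlin, had 0.32 (adjusted p = 0.233) in BRG1, 1.61 (adjusted p = 0.000143) in BRM and 1.37 (adjusted p = 0.00012) in double, and PTK2B, a relative of focal adhesion kinase, had 1.70 (adjusted p = 0.000107) in BRG1, 1.60 (adjusted p = 0.000589) in BRM and 2.23 (adjusted p = 1.49e-05) in double. Among genes called lower, LIMS1, which links integrins to ILK, had -0.91 (adjusted p = 0.000191) in BRG1, -0.40 (adjusted p = 0.0735) in BRM and -0.69 (adjusted p = 0.00146) in double, and the tensin TNS3 had -0.72 (adjusted p = 0.00823) in BRG1, 0.46 (adjusted p = 0.122) in BRM and -0.69 (adjusted p = 0.011) in double. NEDD9, a scaffold of the CAS family, fell in all 3, at -1.0 (adjusted p = 0.0107) in BRG1, -1.68 (adjusted p = 0.0015) in BRM and -2.03 (adjusted p = 0.000103) in double. RSU1, of the ILK complex, went in opposite directions in the single knockdowns, at 0.74 (adjusted p = 0.000911) in BRG1, -1.0 (adjusted p = 0.000461) in BRM and -0.14 (adjusted p = 0.481) in double.

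Of 36 matrix ligands and basement membrane genes, 27 were tested, and 3 were higher and 5 lower in BRG1, 2 and 4 in BRM, and 2 and 8 in double. SPP1, osteopontin, a ligand of ITGAV receptors, fell in all 3, with log2 fold changes of -3.02 (adjusted p = 0.000235) in BRG1, -3.76 (adjusted p = 0.000354) in BRM and -3.98 (adjusted p = 3.77e-05) in double. NPNT, nephronectin, had -2.75 (adjusted p = 0.000225) in BRG1, 0.79 (adjusted p = 0.202) in BRM and -1.54 (adjusted p = 0.00865) in double, and COL4A6, a basement membrane collagen, had -1.57 (adjusted p = 0.000123) in BRG1, -0.45 (adjusted p = 0.213) in BRM and -2.24 (adjusted p = 1.04e-05) in double, so both were lower in BRG1 and double. The matricellular ligand CTGF had 0.72 (adjusted p = 0.017) in BRG1, -1.94 (adjusted p = 0.000128) in BRM and -0.084 (adjusted p = 0.822) in double, and its relative CYR61 had 1.96 (adjusted p = 0.0263) in BRG1, 0.18 (adjusted p = 0.894) in BRM and 2.25 (adjusted p = 0.014) in double, where the BRG1 libraries of CYR61 overlapped NS. VTN, vitronectin, had -0.21 (adjusted p = 0.774) in BRG1, 1.74 (adjusted p = 0.0177) in BRM and 0.86 (adjusted p = 0.156) in double, TGFBI had 0.54 (adjusted p = 0.071) in BRG1, 0.69 (adjusted p = 0.0468) in BRM and 0.23 (adjusted p = 0.48) in double, and COL6A2, a chain of collagen VI, had 0.73 (adjusted p = 0.402) in BRG1, -0.23 (adjusted p = 0.864) in BRM and 1.91 (adjusted p = 0.0245) in double. The median log2 fold change of this list was -0.21 in BRG1, -0.25 in BRM and -0.70 in double.

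Of 25 hemidesmosome, tetraspanin and other partners, 23 were tested, and 8 were higher and 2 lower in BRG1, 3 and 2 in BRM, and 4 and 3 in double. PLAUR, the urokinase receptor, which associates with integrins, had log2 fold changes of 2.81 (adjusted p = 6.15e-06) in BRG1, -0.60 (adjusted p = 0.163) in BRM and 2.86 (adjusted p = 5.51e-06) in double. The tetraspanin CD9 rose in all 3, at 2.76 (adjusted p = 4.34e-05) in BRG1, 1.17 (adjusted p = 0.0288) in BRM and 3.22 (adjusted p = 1.61e-05) in double, and so did the syndecan SDC4, at 1.0 (adjusted p = 0.00139) in BRG1, 1.66 (adjusted p = 0.000142) in BRM and 1.41 (adjusted p = 0.000124) in double. The syndecan SDC2 had -1.64 (adjusted p = 4.23e-05) in BRG1, 0.74 (adjusted p = 0.0249) in BRM and -0.56 (adjusted p = 0.0437) in double, and SDC3 had 1.04 (adjusted p = 0.0152) in BRG1, -2.19 (adjusted p = 0.000776) in BRM and 0.080 (adjusted p = 0.885) in double, so each went in opposite directions in the single knockdowns. The tetraspanin TSPAN4 had 0.77 (adjusted p = 0.214) in BRG1, -1.91 (adjusted p = 0.0167) in BRM and -0.21 (adjusted p = 0.775) in double. The growth factor MDK had -0.72 (adjusted p = 0.0229) in BRG1, 0.093 (adjusted p = 0.85) in BRM and -0.90 (adjusted p = 0.00741) in double, and ADAM15, a protease with an RGD motif, had -0.39 (adjusted p = 0.609) in BRG1, -0.81 (adjusted p = 0.335) in BRM and -1.58 (adjusted p = 0.0254) in double.

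The authors' deposited table of log2 fold changes and adjusted p-values, which does not name its reference group, gave an adjusted p to 30 of the 35 members in BRG1, 30 in BRM and 32 in double. At 0.05 it held 11 with positive and 4 with negative values in BRG1, 3 and 5 in BRM, and 6 and 2 in double. Of all genes with an adjusted p in the authors' deposited table, 12.7% were under 0.05 with a positive value and 11.9% with a negative one in BRG1, 9.34% and 8.82% in BRM, and 11.6% and 10.7% in double. For ITGA5 the authors' deposited table gave 4.23 (adjusted p = 5.33e-22) in BRG1, -1.65 (adjusted p = 0.00557) in BRM and 3.62 (adjusted p = 3.08e-16) in double. For ITGB3 the authors' deposited table gave 1.86 (adjusted p = 0.000194), 1.79 (adjusted p = 0.00167) and 0.39 (adjusted p = 0.629).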

How the data were processed

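RNA of HepG2 cells was sequenced in 15 mRNA libraries. The deposited matrix holds whole-number counts per gene symbol, not normalized, per the file headers and values; the submitters' processing notes name kallisto, DESeq2 and GRCh38, with no version or role, and no strand setting is given in the sources used here. kallisto divides reads among transcripts, so chains with overlapping genes depend on that division. The authors also deposited log2 fold changes and adjusted p-values per gene, with DESeq2's column names in the file headers. Here all 15 libraries were fitted together with edgeR 4.0.16 (R 4.3.3; TMM, filterByExpr, robust quasi-likelihood F test, group means), with Benjamini-Hochberg adjustment over 14621 genes within each of 7 contrasts; the fit was tested on simulated data. DESeq2 1.42.0, DESeq2 size factors, no filter, at least 1 CPM in 3 libraries, the set as a covariate, within-set values, the groups compared alone and each library left out were tried. Replicate numbers were tried as a block. Deviations from group means of same-numbered libraries correlated at 0.499 to 0.670 between BRG1 and NS and 0.249 to 0.546 between double and NS. Between BRG1 and BRM they correlated at 0.147 to 0.647, so all of these were over 0.1, and not so in the other pairs of groups. Libraries of the same set resembled each other too, and differently numbered libraries were not compared between groups. These correlations therefore cannot tell pairing by number from the set. Coordinates and exon lengths are from GENCODE 29 on GRCh38, whose relation to the authors' annotation is not known, and promoters from RefSeq on GRCh38.p14. The members, the lists and the tests were chosen with earlier results of these data known. Members called against NS or in the interaction are given by library; from each list of related genes the 2 called members of smallest adjusted p in each direction are named. The limit on a count of 0 covers counting error only, while SEs and ± 2 SE intervals include the spread between libraries. Promoters of ITGA3, ITGA7, ITGA9, ITGAL, ITGAX, ITGB2, ITGB3, ITGB4, LAMA1 and LAMC3 were not used here.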

Additional observations from a re-analysis of the deposited data

Results flagged for a closer look

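In double, ITGA10 had 7.60 CPM in library 1, against 5.55 to 5.80 in the other 3, a gap to the others that passed Dixon's test at the 5% level. LAMB2 had 281 CPM in double library 4, against 187 to 193 in the other 3, by the same test. Chance gives such a gap in about 5% of groups, and 84 groups were examined. ITGB3 had an interaction of -3.30 on the log2 scale (edgeR adjusted p = 0.0296), so that the effect of the BRM hairpin differed with and without the BRG1 hairpin; the call was lost in 11 of 15 fits without 1 library.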

How the results depend on the processing

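Of the members' calls, none turned direction under DESeq2, DESeq2 size factors, either filter, the block, the set covariate, the groups alone or with 1 library left out. Within libraries 1 and 2, double against NS reversed for ITGA10, 1.30 (adjusted p = 0.000978), which was not called in the whole fit (-0.13), and for LAMB3, -0.079 (adjusted p = 0.932); for both the sets differed. BRM against NS gave 2 lower with no filter, 4 higher within libraries 1 and 2 and 5 within 3 and 4. Double against NS gave 5 lower with the set covariate, 10 higher and 4 lower within libraries 1 and 2, and 4 lower within 3 and 4. Double against BRG1 gave 2 higher and 5 lower with DESeq2, 2 higher and 8 lower with the replicate block, 2 higher and 11 lower with the set covariate, 2 higher and 12 lower within libraries 1 and 2, 5 lower within 3 and 4 and 5 with the 2 groups alone. Double against BRM gave 5 lower with the set covariate. The interaction gave 2 lower with DESeq2, 2 with the block, 3 with the set covariate, 7 within libraries 1 and 2 and 0 within 3 and 4. With the 2 groups fitted alone, calls were lost for LAMB3 in double against NS (2.24 (adjusted p = 0.0589)), for ITGB3 and LAMB3 in double against BRM (-1.39 (adjusted p = 0.0877) and 2.60 (adjusted p = 0.0777)) and for ITGAV and LAMB2 in BRG1 against BRM (1.32 (adjusted p = 0.0563) and -0.54 (adjusted p = 0.0588)). Without a filter they were lost for ITGB3 in double against BRG1 (0.0532, adjusted p) and against BRM (0.0652) and for LAMB2 in BRG1 against BRM (0.0825). The causes were not tested. Leaving out 1 library gave 10 to 11 higher and 3 to 4 lower in BRG1 against NS, 1 to 2 higher and 1 to 4 lower in BRM, 5 to 6 higher and 2 to 4 lower in double, 1 to 2 higher and 2 to 4 lower in double against BRG1, 6 to 7 higher and 2 to 4 lower in double against BRM, 11 to 12 higher and 2 to 3 lower in BRG1 against BRM and 0 to 1 lower in the interaction; 42 calls of members were lost and 14 gained in all, and 1580 results kept their side.

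With the replicate block, all genes called were 5318 against 3284 without it in BRG1 against NS, 5200 against 3165 in double, 4153 against 2035 in BRM, 3259 against 1582 in double against BRG1, 5302 against 2787 in double against BRM and 633 against 73 in the interaction. In BRG1 against NS, double against NS and BRG1 against BRM, the block changed no call of a member other than those given above. In the other comparisons, the block added calls for ITGA2, ITGAL and ITGB4 in BRM against NS and for ITGA2, ITGAL, ITGB4, ITGB5, LAMB3 and LAMC3 in double against BRG1. It also added calls for ITGAV, ITGB5 and LAMA5 in double against BRM, and for ITGA6 in the interaction. DESeq2 added calls for ITGAL and LAMC1 in BRG1 and for ITGA2 and ITGAL in BRM against NS, for ITGA2, ITGAL and ITGB5 in double against BRG1, for ITGB5 and LAMA5 in double against BRM, and for ITGA6 in the interaction; the filter of 1 CPM added ITGA2 in BRM against NS. With the set covariate all genes called were 5720, 4684, 5646, 3728, 5718, 7659 and 1061 in BRG1, BRM and double against NS, double against BRG1, double against BRM, BRG1 against BRM and the interaction. Within libraries 1 and 2 they were 5921 in BRG1 and 4336 in BRM against NS, 4249 in double against BRG1, 4751 in double against BRM, 7461 against 4957 in BRG1 against BRM and 1938 in the interaction, and within 3 and 4 they were 3349 in BRM and 5286 in double against NS and 530 in the interaction. DESeq2 called 465 in the interaction, and BRM and NS fitted alone 1002. Leaving out 1 library brought the count down to 959 in BRM against NS and 934 in double against BRG1, and to between 38 and 166 in the interaction. Chains under 1 CPM rest on few counts, so their differences were not detectable at this depth unless large.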
